A study of Mus musculus with 2 samples.

Results

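The phagocyte NADPH oxidase was followed in cells taken from a healing mouse calvarial bone defect. Its 7 genes (Cybb, Cyba, Ncf1, Ncf4, Rac2, Rac1 and Nox4) were taken by symbol from the 32285 genes of the count files, and each symbol matched 1 gene. In all, 2 single-cell RNA libraries were compared, 1 per condition: gambogic amide (GA), a small molecule that activates the nerve growth factor receptor TrkA, and a vehicle control of 10% DMSO. Each library was a pool of 5 male C57BL/6 mice, 2 months of age, and both groups received the same calvarial defect. The labels give 100 µL by intraperitoneal injection each day, at 1.2 mg/kg for GA, from 24 h before the defect and for 1 week, and the tissue was taken on day 7. Because the mice of a condition were pooled, an animal cannot be told from another, no difference between conditions has a replicate check, and no p-value is given.

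The oxidase of phagocytes passes electrons from NADPH across a membrane to oxygen and so makes superoxide, which neutrophils and macrophages use against microbes and as a signal. Cybb encodes the catalytic subunit gp91phox and Cyba its membrane partner p22phox, without which the catalytic subunit is unstable. Ncf1 (p47phox) and Ncf4 (p40phox) encode cytosolic subunits that move to the membrane on activation, and Rac2 or Rac1 is the small GTPase that completes the complex. Nox4 is a related catalytic subunit that also pairs with p22phox, needs no cytosolic subunit or Rac, and is known from fibroblasts, vascular cells and other cells outside the blood.

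After filtering, 8356 cells with 159689176 transcript molecules (UMIs, unique molecular identifiers) were kept in the GA library and 7507 cells with 181195479 UMIs in the control library. The median depth was 10744 UMIs per cell in the GA library and 15927 in the control library. The libraries shared 18 barcodes among the kept cells. Cells were clustered without the 7 genes and named by marker lists, and 9 classes with at least 50 cells in each library were compared, each called "-like" or by its list below. All 11 neutrophil markers (S100a8, Ly6g, Camp and others), 9 of 12 macrophage or monocyte markers, 9 of 10 mesenchymal markers and 6 of 8 osteoblast markers were highest in their own class in both libraries, and no marker of these lists was at 0 there. Neutrophil-like cells made up 52.1% of the kept cells with GA and 27.7% in the control, macrophage- or monocyte-like cells 16.4% and 24.4%, and mesenchymal lineage cells (with osteoblast-like cells) 10.6% and 23.4%.

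Levels are given as CPM, the UMIs of a gene per 1000000 UMIs of all cells of a class in a library. They rank classes for 1 gene, but 3′ counts are not set against each other between genes here. Brackets hold exact 95% intervals, Poisson for a level and conditional binomial for a ratio, which cover counting error only and not the spread between mice. In summed counts, fewer UMIs of a gene per cell and fewer cells with the gene cannot be told apart.

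Cybb and Ncf1 were the pair of subunits whose levels across classes were most alike, so the stretches before their start sites are printed. These are the 100 bases before each RefSeq start (GRCm38.p6), 5′ to 3′ on the gene's strand, with GGAA or its reverse complement TTCC in capitals, the core of the sites bound by ETS factors such as PU.1. The Cybb stretch is chrX:9469325-9469424 on the minus strand, and the Ncf1 stretch is chr5:134229626-134229725 on the minus strand.
Cybb: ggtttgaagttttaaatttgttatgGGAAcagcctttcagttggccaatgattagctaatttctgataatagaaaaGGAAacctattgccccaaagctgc
Ncf1: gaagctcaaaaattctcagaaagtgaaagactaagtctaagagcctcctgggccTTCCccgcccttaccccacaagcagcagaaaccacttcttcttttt
The Cybb stretch held GGAA in 2 places on its own strand and the Ncf1 stretch in 1 place on the other strand. Of 27025 mouse promoters of this length, 67.0% held the core on either strand, so its presence does not set these genes apart. The longer letters GAGGAA, held by 9.76% of promoters on either strand, were in neither stretch. A match of letters is a description of the sequence and not a measured site.

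In the annotation of the same build (GENCODE vM21), Cybb spans chrX:9435252-9487771, Cyba chr8:122424776-122432930, Ncf1 chr5:134220053-134229625 and Rac1 chr5:143503634-143528036, all on the minus strand. The Cybb stretch printed above lies inside this Cybb span, so the RefSeq start used for it is not the start of the GENCODE span. The Ncf1 stretch lies directly before the Ncf1 span. Ncf4 (chr15:78244801-78262580, plus strand) and Rac2 (chr15:78559167-78572783, minus strand) lie on the same chromosome, and Nox4 spans chr7:87246096-87398710 on the plus strand. Cyba overlaps Gm20388, Ncf1 overlaps Gtf2ird2, and Rac1 overlaps Daglb and Gm42502 on the opposite strand. Whether the counting used strand is not given in the sources used here, so reads of these pairs may not be fully told apart.

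The catalytic subunit was mostly a transcript of neutrophil-like and macrophage- or monocyte-like cells. Cybb stood at 1303 CPM in neutrophil-like cells with GA and 1433 in the control, and at 663 and 646 CPM in macrophage- or monocyte-like cells. It was 407 and 631 CPM in plasmacytoid dendritic-like cells and 584 and 372 CPM in dendritic-like cells, and the ranges of the 2 libraries in these last 2 classes overlapped. Progenitor-like cells held 133 and 149 CPM, B-like cells 33.3 and 40.6 CPM, T- or NK-like cells 6.04 and 4.13 CPM, and mesenchymal lineage cells 3.52 and 1.87 CPM. Cybb was therefore higher in each phagocyte class than in each lymphoid or mesenchymal class, in both libraries. Erythroid-like cells, with 59 and 79 cells, gave 281 CPM with GA and 103 CPM in the control from 133 and 58 UMIs, and neutrophil markers summed to 12276 and 6479 CPM in the same cells; the part of other cells' RNA in these values was not tested.

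The share of cells with a Cybb UMI was compared after every cell was thinned to 2000 UMIs. It was 55.2% of 4324 neutrophil-like cells with GA and 55.1% of 2053 in the control, against 68.5% and 65.8% before thinning. Macrophage- or monocyte-like cells reached 63.5% and 61.8% after thinning and 94.7% and 93.0% before it. B-like cells had 8.33% and 10.2%. T- or NK-like cells, which should lack the gene, had 2.58% and 1.31% after thinning, at median depths of 8865 and 7083 UMIs before it, where neutrophil-like cells had 6969 and 5087. The neutrophil share was thus above that of both lymphoid classes. Thinning left out 29 and 26 neutrophil-like, 20 and 22 macrophage- or monocyte-like and 2 and 4 T- or NK-like cells.

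p22phox was spread more widely. Cyba was 1625 and 1396 CPM in dendritic-like cells, 1352 and 1494 CPM in macrophage- or monocyte-like cells and 1344 and 1285 CPM in neutrophil-like cells, and the ranges of the first 2 overlapped. T- or NK-like cells held 528 and 558 CPM and mesenchymal lineage cells 136 and 144 CPM, where 23.1% and 24.9% of cells had a Cyba UMI after thinning. The membrane partner was therefore present in classes in which Cybb was near background.

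The cytosolic subunits differed in which classes carried them. Ncf1 was 584 and 575 CPM in neutrophil-like cells and 494 and 607.9 CPM in plasmacytoid dendritic-like cells, whose ranges overlapped, and 168 and 177 CPM in macrophage- or monocyte-like cells. Ncf4 was 302 and 283 CPM in neutrophil-like cells, and only 29.1 and 24.4 CPM in plasmacytoid dendritic-like cells. So plasmacytoid dendritic-like cells were near the top of the 9 classes for Ncf1 and near the bottom for Ncf4. Both genes were near background in mesenchymal lineage cells, at 3.54 and 1.46 CPM for Ncf1 and 2.02 and 1.01 CPM for Ncf4.

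The GTPases divided the classes in another way. Rac2, the form of blood cells, was 943 and 811 CPM in neutrophil-like cells, 692 and 779 CPM in plasmacytoid dendritic-like cells, 656 and 607.9 CPM in T- or NK-like cells and 4.31 and 1.497 CPM in mesenchymal lineage cells. Rac1, the form of most cell types, ranged over the 9 classes from 108 to 381 CPM with GA and from 157 to 328 CPM in the control. In mesenchymal lineage cells Rac1 was 249.7 CPM in both libraries. Rac2 thus separated blood cells from mesenchymal cells, and Rac1 did not.

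**Figure D1:**
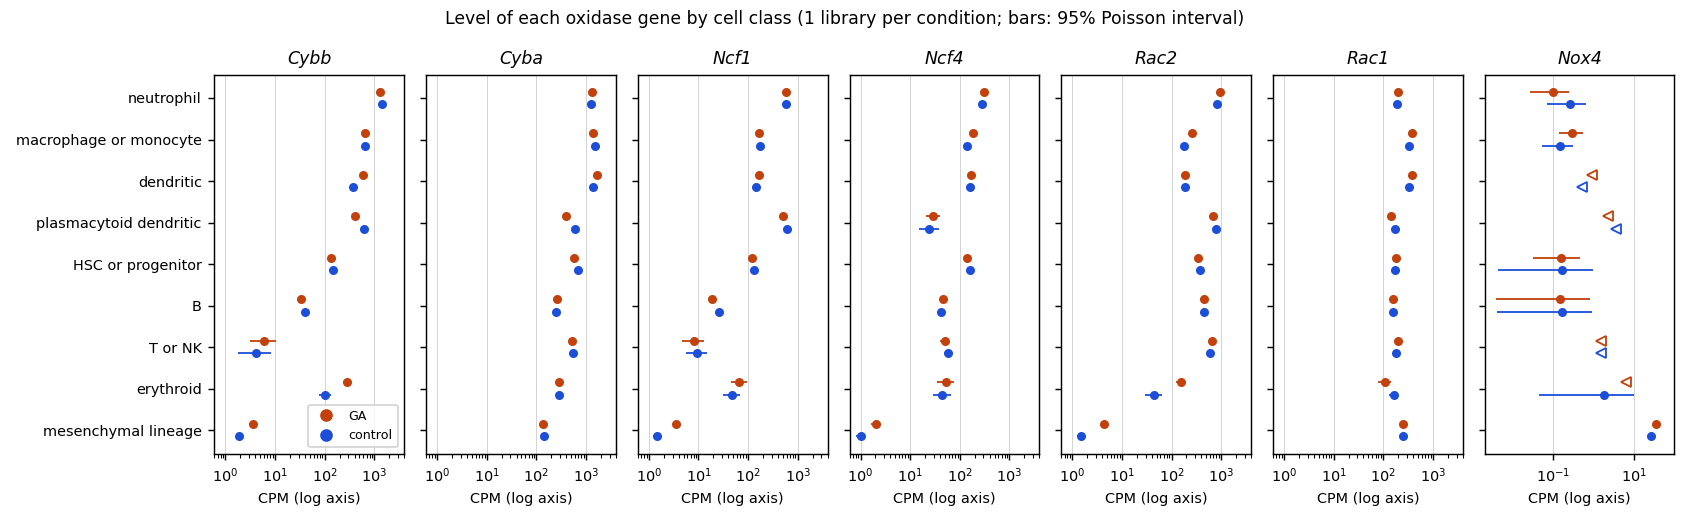
Level of each of the 7 genes (CPM, log axis) in 9 cell classes, with 1 point for the GA library and 1 for the control library and bars for the 95% counting interval. Open triangles mark the limit of 3 UMIs where no UMI was counted; Cybb, Ncf1, Ncf4 and Rac2 lie below 5 CPM in mesenchymal lineage cells, and Nox4 lies above 26 CPM there and, where it was counted, below 2 CPM in the 8 other classes.

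Nox4 had the opposite distribution. Of its 1806 UMIs with GA and 3070 in the control, 89.9% and 84.3% were in mesenchymal lineage cells, at 34.9 and 26.7 CPM. Neutrophil-like cells held 4 UMIs in each library and macrophage- or monocyte-like cells 10 and 6, and T- or NK-like, dendritic-like and plasmacytoid dendritic-like cells held none. In T- or NK-like cells, 0 of 194 and 0 of 229 thinned cells allow a share of cells with a UMI at that depth of up to 1.55% and 1.31%, which does not limit the share that express the gene. After thinning, 6.92% of mesenchymal lineage cells with GA and 4.74% in the control had a Nox4 UMI, against 53.5% and 46.8% before thinning, and 0.0231% and 0.0487% of neutrophil-like cells. Thinning left out 29 and 7 mesenchymal lineage cells, whose median depths were 49612 and 50902 UMIs.

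Some genes followed a member closely across the 9 classes (mean over the libraries of Pearson's r of log2(CPM + 10), over 15201 genes, given as a description since the classes share library and depth). Nearest to Cybb were Alox5ap (0.97), which presents arachidonic acid for leukotriene synthesis, Nfam1 (0.95) and Ncf1 (0.95). Cyba was followed by Rhog (0.95), Ncf4 by Vav3 (0.96), an exchange factor of Rac, and Rac2 by Exoc6 (0.98) and Arhgap15 (0.97), a Rac GTPase-activating protein. Rac1 was followed by 4833427F10Rik (0.95) and Kcnk6 (0.94). For Nox4, Scara5, Cfap69 and Prdm6 all came to 1.00 after rounding, since each was nearly restricted to 1 class of the 9.

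Within neutrophil-like cells, the catalytic subunit differed more between immature, mature and chemokine cells than its partners did. Subsets were named by marker lists: dividing, immature (Ltf, Camp and Ngp, granule genes), mature (Retnlg, Cxcr2 and others) and chemokine cells (Ccl3, Ccl4, Cxcl2). Cybb was 1491 and 1638 CPM in dividing cells, 2397 and 2649 CPM in immature cells, 635 and 754 CPM in mature cells and 117 and 158 CPM in chemokine cells. The order was the same in both libraries, and no interval of a subset overlapped that of the next. Mature over immature, the log2 ratio was -1.92 [-1.95, -1.88] with GA and -1.81 [-1.87, -1.76] in the control, and chemokine over mature it was -2.44 [-2.56, -2.32] and -2.26 [-2.42, -2.10].

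The partners were closer to flat from immature to chemokine cells, but not from dividing to immature cells. At that first step the log2 ratio of immature over dividing was 0.63 with GA and 0.79 in the control for Ncf1, beside 0.69 in both for Cybb. Ncf1 was 661 and 668 CPM in immature cells, 638 and 674 CPM in mature cells and 574 and 569 CPM in chemokine cells. Its log2 ratio of mature over immature was -0.05 [-0.10, -0.01] with GA and 0.01 [-0.06, 0.09] in the control. For Cyba the ratio was -0.66 and -0.55, for Ncf4 -0.35 and -0.29, for Rac2 0.13 and -0.04, and for Rac1 0.60 and 0.64. Cybb was thus the member with the lowest ratio of mature over immature, and Rac1 was the member with the highest, in both libraries. Because the subsets were clustered on the same cells, although without these genes, the ratios are descriptions with no test.

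Shares of cells gave the same order for Cybb. After thinning, 96.6% of immature cells in both libraries had a Cybb UMI, as did 92.6% and 91.2% of dividing, 52.0% and 54.3% of mature and 13.8% and 14.7% of chemokine cells. Before thinning the chemokine cells were at 24.8% and 24.2% and the mature cells at 73.3% and 70.9%, at median depths of 4904 and 3752.5 UMIs for chemokine and 6552 and 4910.0 UMIs for mature cells. The chemokine share stood above those of T- or NK-like and B-like cells given earlier. It was below that of progenitor-like cells, at 20.4% with GA and 18.75% in the control. The share of thinned cells with an Ncf1 UMI was 71.4% and 69.7% in immature and 63.8% and 61.1% in chemokine cells. The remaining subset, with interferon genes, had 28 and 20 cells and 10 and 36 Cybb UMIs.

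**Figure D2:**
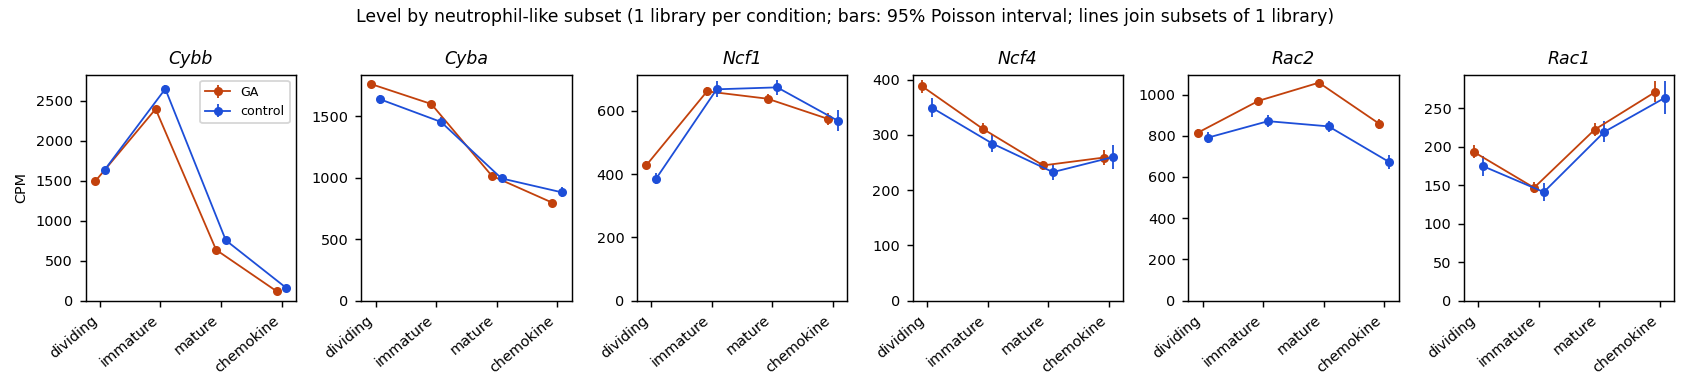
Level of Cybb, Cyba, Ncf1, Ncf4, Rac2 and Rac1 (CPM, each axis from 0) in dividing, immature, mature and chemokine neutrophil-like cells, for the GA and the control library, with 95% counting intervals as bars. Cybb goes from 2397 and 2649 CPM in immature cells to 117 and 158 CPM in chemokine cells, while Ncf1 stays between 569 and 674 CPM over immature, mature and chemokine cells.

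Cells with all 5 phagocyte subunits (Cybb, Cyba, Ncf1, Ncf4 and Rac2) detected after thinning were most frequent among immature and dividing neutrophil-like cells. They were 25.4% [22.7, 28.3] of 967 immature cells with GA and 21.1% [17.2, 25.3] of 413 in the control. In dividing cells they were 21.7% [17.4, 26.4] of 337 and 19.8% [14.3, 26.3] of 182, and the intervals of these 2 subsets overlapped. Cells with all 5 made up 12.6% [11.6, 13.6] and 11.4% [10.1, 12.9] of all neutrophil-like cells and 2.28% and 2.91% of chemokine cells. Macrophage- or monocyte-like cells reached 2.52% and 1.44%, and none of 853 and 1751 mesenchymal lineage cells had all 5. In the mesenchymal lineage cells the exact 95% intervals allow a share with all 5 detected at that depth of up to 0.43% and 0.21%. Before thinning, the shares were 55.4% and 47.7% in neutrophil-like and 72.5% and 63.5% in macrophage- or monocyte-like cells, so the order of these 2 classes depends on depth. Dividing neutrophil-like cells were then at 99.7% and 94.5% and immature ones at 93.0% and 85.3%, so their order depends on depth too.

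Among macrophage- and monocyte-like cells, Cybb, Ncf4 and Rac2 were lower in the subset with C1q, the complement genes of tissue macrophages, than in Ly6c2 monocyte-like cells, and Cyba was not. Cybb was 1766 and 2032 CPM in non-classical monocyte-like cells (31 and 26 cells) and 1089 and 1004 CPM in Arg1 cells. Ly6c2 monocyte-like cells held 743 and 947 CPM and C1q cells 468 and 502 CPM. The log2 ratio of C1q over Ly6c2 was -0.67 and -0.92. The Arg1 subset, with 108 and 210 cells, leaves out other cells with Arg1. An unnamed subcluster led by Arg1 had 211 and 339 cells, and a C1q subcluster had Arg1 among its leading genes. Without a subcluster led by Prtn3, Ctsg and Elane, left out after seeing the data, Ly6c2 monocyte-like cells were at 1017.5 and 1172.6 CPM. That is above Arg1 cells in the control. Ncf4 was 246 and 239 CPM in Ly6c2 monocyte-like and 96.8 and 105 CPM in C1q cells, a ratio of -1.34 and -1.19. Rac2 was 353 and 323 CPM against 157 and 153 CPM, a ratio of -1.17 and -1.08. Ncf1 was 144 and 147 CPM in Ly6c2 monocyte-like, 138 and 126 CPM in C1q and 216 and 168 CPM in Arg1 cells, and its ratio of C1q over Ly6c2 was -0.07 [-0.17, 0.04] with GA and -0.21 [-0.32, -0.11] in the control. Cyba, in contrast, differed by 0.08 and 0.10 between these subsets and reached 2245 and 1984 CPM in Arg1 cells. The monocyte-like subset therefore held more Cybb, Ncf4 and Rac2 than the C1q subset in both libraries. The median of all genes for C1q over Ly6c2 was itself -0.29 with GA and -0.23 in the control. Of all genes, 68.6% and 83.3% had a higher ratio than Cybb, 88.7% and 89.4% than Ncf4 and 85.8% and 87.5% than Rac2. Ncf1 and Cyba lay above that median in both libraries.

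Over all kept cells, Cybb, Ncf1, Ncf4 and Rac2 were higher in the GA library in comparison to control, and Nox4 was lower. Cybb was 519 CPM with GA and 295 in the control (log2 ratio 0.82 [0.80, 0.83]), Ncf1 213 and 104 (1.04), Ncf4 142 and 69.8 (1.03) and Rac2 383 and 155 (1.31). Cyba was 813 and 623 (0.39), Rac1 254 and 256 (-0.01) and Nox4 11.3 and 16.9 (-0.58). Here 5 of 7 genes had a log2 ratio of at least 0.5 in size from at least 200 UMIs, the size used throughout, against 32.5% of 15201 genes. Neutrophil-like cells, with 52.1% and 27.7% of cells, held 65.5% of Cybb UMIs with GA and 41.6% in the control.

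Within neutrophil-like cells the subunits were near the same level in both conditions. Cybb was 1303 CPM with GA and 1433 in the control (log2 ratio -0.14 [-0.16, -0.12]) and Rac2 was 943 and 811 (0.22 [0.19, 0.25]). Cyba, Ncf1, Ncf4 and Rac1 lay between 0.02 and 0.09. No member reached 0.5 in size, as 8.38% of 8212 genes did, and the median of 6 members was 0.06 beside -0.14 over all genes of the class. Relative to that median gene, Cybb was at -0.00 and Rac2 at 0.35. Over 13 alternatives Cybb stayed between -0.23 and -0.00 and Rac2 between 0.20 and 0.35.

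For Cybb and Rac2 the direction of these small differences was the same in each large neutrophil subset, but not for every member. Cyba was 797 CPM with GA and 881 in the control in chemokine cells, lower with GA there. Ncf1 was 638 and 674 CPM in mature cells, also lower with GA, and Ncf4 was 259 and 260 CPM in chemokine cells. For Cybb the log2 ratio was -0.14 in dividing, -0.14 in immature, -0.25 in mature and -0.43 [-0.62, -0.24] in chemokine cells, lower with GA in 4 of 4. For Rac2 it was 0.04, 0.15, 0.32 and 0.35 [0.27, 0.44] in the same order, higher with GA in 4 of 4, although the interval in dividing cells [-0.01, 0.10] included 0. The median gene of the whole class was at -0.14, and that of each subset is not given here. In the small interferon subset Cybb was 83.6 CPM with GA and 446 in the control, from 10 and 36 UMIs. Rac2 was 526 and 657 CPM there, lower with GA, from 63 and 53 UMIs. These subsets come from the same 2 libraries and are not replicates.

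**Figure D3:**
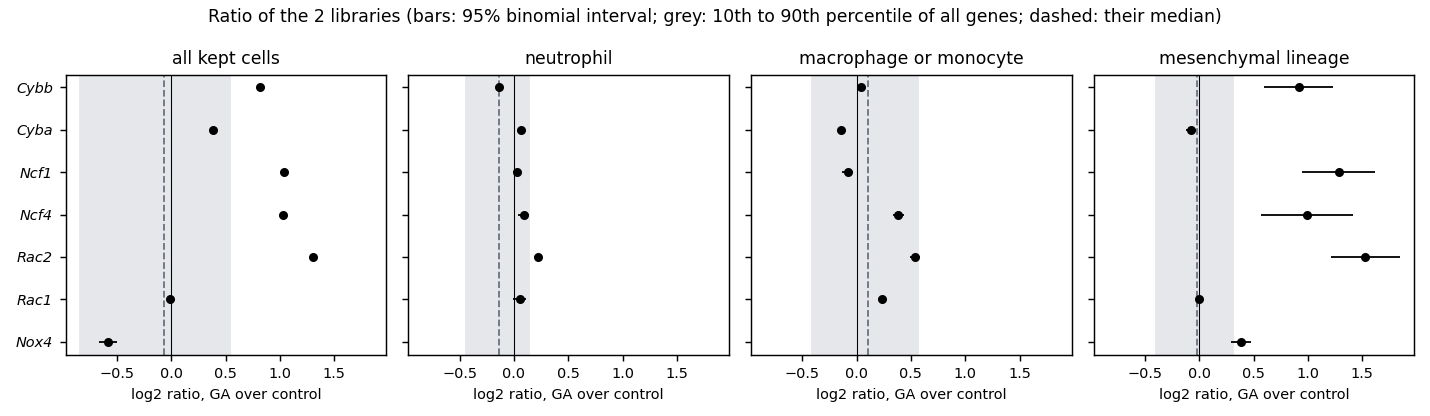
Log2 ratio of GA over control for each gene with at least 20 UMIs, in all kept cells, neutrophil-like, macrophage- or monocyte-like and mesenchymal lineage cells, with 95% counting intervals, the 10th to 90th percentile of all genes in grey and their median dashed. In neutrophil-like cells all 6 plotted subunits lie between -0.14 and 0.22, and in mesenchymal lineage cells Rac2 lies at 1.53 and Rac1 at -0.00.

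In macrophage- and monocyte-like cells, Rac2 was 259.6 CPM with GA and 179 in the control (log2 ratio 0.54 [0.50, 0.58]), Ncf4 183 and 140.0 (0.38) and Rac1 381 and 324 (0.23). Cybb was at 0.04, Ncf1 at -0.08 and Cyba at -0.14. Rac2 was the 1 member of 6 past 0.5, against 20.2% of 10626 genes, and relative to the median gene of the class (0.10) it was at 0.44. Ly6c2 monocyte-like cells, which hold more Rac2, were 41.7% of the class with GA and 22.0% in the control. With the subsets weighted equally in both libraries Rac2 was at 0.18 and Ncf4 at 0.03. Rac2 was at 0.04 within C1q cells and at 0.13 [0.06, 0.20] within Ly6c2 monocyte-like cells. Without the Prtn3 subcluster these monocyte-like cells were at 0.27 [0.17, 0.38]. In Arg1 cells Rac2 was 162 CPM with GA and 139 in the control, and Ncf4 was 167 and 124. In C1q cells Ncf4 was 96.8 and 105 CPM, lower with GA. The part of the mix of subsets in these ratios was not tested further. All 11 neutrophil markers were also higher in this class with GA, summing to 1800 CPM against 395, and their part in the ratio of Rac2 was not tested.

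Within the Ly6c2 monocyte-like subset, Cybb was 743 CPM with GA and 947 in the control, a log2 ratio of -0.35 [-0.39, -0.31]. A subcluster led by Prtn3, Ctsg and Elane, genes of myeloid progenitors, held 213 of 570 of these cells with GA and 93 of 404 in the control. Without it, in an alternative chosen after seeing the data, Cybb was 1017.5 and 1172.6 CPM and the ratio was -0.20 [-0.26, -0.15]. The neutrophil markers summed to 2755 CPM with GA and 688 in the control in the whole subset and to 1857 and 390.0 without the subcluster, and their part in the Cybb ratio was not tested.

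In mesenchymal lineage cells the ratios of the phagocyte subunits were high but rested on few UMIs. Cybb had 164 UMIs with GA and 181 in the control (log2 ratio 0.91 [0.60, 1.23]), Ncf1 165 and 141 (1.28 [0.95, 1.62]), Rac2 201 and 145 (1.53 [1.21, 1.85]) and Ncf4 94 and 98 (1.00). Cybb, Ncf1 and Rac2, 3 of the 6 members with at least 200 UMIs, were past 0.5, against 12.6% of 12758 genes. The levels themselves were 0.270% and 0.130% of those in neutrophil-like cells for Cybb, 0.606% and 0.253% for Ncf1, 0.668% and 0.357% for Ncf4 and 0.458% and 0.185% for Rac2. The 11 neutrophil markers, which mesenchymal cells should lack, were all higher with GA too and summed to 606 CPM against 167, or 0.178% and 0.0534% of their level in neutrophil-like cells. With 5% of the UMIs of each class removed in proportion to the whole library, Cybb, Ncf1, Ncf4 and Rac2 came to 0 UMIs. The amount removed exceeded their level, so this setting cannot judge their ratios. With it 0 members were past 0.5, and the median of -0.00 covered Cyba, Rac1 and Nox4 only. After thinning, 0.352% and 0.171% of mesenchymal lineage cells had a Cybb UMI, below the shares in T- or NK-like cells, and it is not read as expression. The part of other cells' RNA in these ratios was not tested further.

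The members that mesenchymal cells do carry differed less. Cyba was 136 CPM with GA and 144 in the control (log2 ratio -0.08 [-0.12, -0.03]), Rac1 was 249.7 in both (-0.00 [-0.03, 0.03]) and Nox4 was 34.9 and 26.7 (0.38 [0.29, 0.47]). None of the 3 was past 0.5. The mix of the class differed between the libraries: cells with Cd34 and Thy1, where Nox4 was 48.1 and 39.4 CPM, were 39.3% of it with GA and 29.9% in the control, and fibroblastic cells, where Nox4 was 37.7 and 20.8 CPM, were 4.54% and 19.2%. With the subsets weighted equally in both libraries the Nox4 ratio was 0.23. Nox4 kept its direction under 13 of 13 alternatives, from 0.19 to 0.54, the highest with cells thinned. The class leaves out an unnamed cluster led by Kcnj8, Mmp3 and Cdkn1c and another led by Mmp3 and Kcnj8. Both had their highest marker score for the mesenchymal list. Nox4 was lower with GA in them, at 42.6 against 66.3 CPM and 81.1 against 162 CPM. Their part in the Nox4 ratio was not tested.

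Nox4 was uneven among mesenchymal cells. It was 131 and 94.3 CPM in a subcluster led by Pi16, Clec3b and C3, genes of adventitial fibroblasts, 46.7 and 63.7 CPM in a subcluster led by C3, Pi16 and Mmp3 and 53.3 and 57.0 CPM in a subcluster led by Egfl6, Cxcl14 and Igf1. A subcluster of mature osteoblast-like cells led by Bglap, Bglap2 and Ibsp held no Nox4 UMI in 88 and 61 cells, where 3 UMIs would be 0.936 and 1.23 CPM. Nox4 was thus highest in the Pi16 subcluster of these 3 in both libraries and under the detection limit in the osteoblast-like one, and it was higher with GA there but lower with GA in the C3 subcluster (log2 ratios 0.47 [0.28, 0.66] and -0.45 [-0.72, -0.18]). An unnamed subcluster of 26 and 34 cells was at 46.5 and 125 CPM, and a small one led by Slc47a1, with 11 and 79 cells, at 69.9 and 12.4 CPM from 23 and 35 UMIs. A dividing subcluster led by Crabp1 and Barx2 was at 33.8 and 17.5 CPM (0.95 [0.56, 1.36]).

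**Figure D4:**
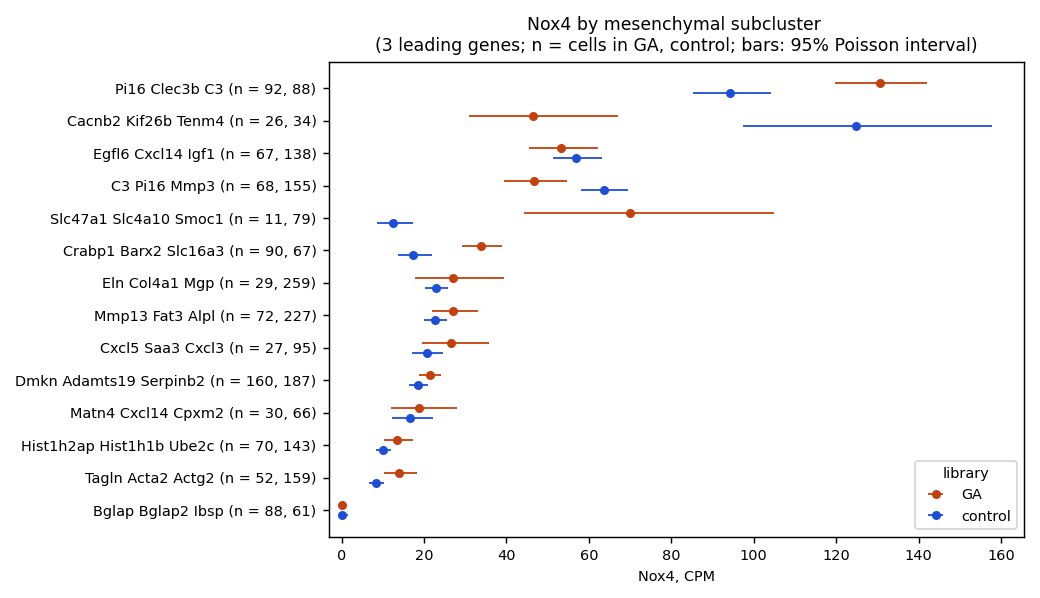
Nox4 level (CPM) in each subcluster of mesenchymal lineage cells for the GA and the control library, with 95% counting intervals. The subcluster led by Pi16 and Clec3b is at 131 and 94.3 CPM, and the one led by Bglap has no UMI in either library.

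Dendritic-like and plasmacytoid dendritic-like cells gave opposite values for Cybb. In dendritic-like cells Cybb was 584 CPM with GA and 372 in the control (log2 ratio 0.65 [0.56, 0.74]), and it was the 1 member of 6 past 0.5, against 10.7% of 5535 genes. In the same class all 8 dendritic markers were lower with GA, summing to 795 CPM against 1264, and 11 of 12 macrophage markers were higher, summing to 5091 CPM against 3644. With each cell named by its highest marker score in place of its cluster, the Cybb ratio was -0.09. In plasmacytoid dendritic-like cells (82 and 73 cells) Cybb was 407 CPM with GA and 631 in the control (-0.63 [-0.81, -0.46]) and Cyba 392 and 596 (-0.61). Both were past 0.5, 2 of the 5 members with at least 200 UMIs, against 17.0% of 2153 genes. Macrophage markers summed to 703 CPM with GA and 1487 in the control in that class, although 4 of 12 were higher with GA. Most of the control sum was Ly6c2, at 1175 CPM, and in that library Ly6c2 was highest in this class. The sum is therefore mostly a value of Ly6c2 and not of the whole list. The part of a changed mix of cells in these values was not tested.

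B-like, progenitor-like and T- or NK-like cells had no member past 0.5 from at least 200 UMIs. In B-like cells none was, against 1.77% of 7044 genes, and the ratios lay between -0.49 (Ncf1) and 0.12 (Ncf4). In progenitor-like cells none was, against 7.71% of 8525 genes, and 5 of 6 intervals lay below 0, at a median of -0.15 beside 0.02 over all genes. Those cells had a median of 47599 UMIs with GA and 23152 in the control. The neutrophil markers summed to 25511 and 34871 CPM in them, although 7 of 11 were higher with GA. The mesenchymal markers summed to 298 and 826 CPM, and 0 of 10 were higher with GA. The part of depth and of both lists in the ratios was not tested. In T- or NK-like cells none of the 4 members with 200 UMIs was past 0.5, against 5.59% of 3437 genes. In erythroid-like cells Cyba alone had 200 UMIs, at -0.05, while Cybb was at 1.45 [0.99, 1.92], Rac2 at 1.80 [1.12, 2.51] and Rac1 at -0.59 [-1.11, -0.08] from fewer, and Cybb kept its sign under 8 of 12 alternatives. The mesenchymal markers summed to 389 CPM with GA and 18944 in the control in these cells, beside the neutrophil markers given earlier.

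Genes around the oxidase were counted from 4 lists, and a gene needed at least 200 UMIs in a class to be counted. In neutrophil-like cells, 1 of 14 regulators of the oxidase was past 0.5, which was lower with GA: Pak1, a kinase that Rac activates, was 62.5 CPM with GA and 89.99 in the control (log2 ratio -0.53). None of 7 genes of NADPH supply was past it, and 3 of 18 genes of superoxide and peroxide removal were lower, against the 8.38% of all genes of the class past it in either direction: Gpx3, a secreted glutathione peroxidase (-1.09), Gclc, of glutathione synthesis (-0.62), and Prdx1, a peroxiredoxin (-0.59). Medians were -0.08, 0.10 and -0.15 for these 3 lists beside -0.14 over all genes. Of 10 genes of other NADPH oxidases and their partners, 2 had enough UMIs and neither was past 0.5.

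In macrophage- and monocyte-like cells, genes of superoxide and peroxide removal went both ways. Of 19, 7 were lower and 1 was higher with GA, against 20.2% of all genes of the class past 0.5 in either direction. Hmox1, which degrades heme, was 858 CPM with GA and 1509 in the control (-0.81), Gclm, of glutathione synthesis, was 124 and 201 (-0.69), and Gsr, glutathione reductase, was 260.2 and 119 (1.13). Of 14 regulators, Hvcn1, the proton channel that balances the charge of the oxidase, was 25.8 and 49.8 CPM (-0.95) and Arhgdib, which holds Rac2 in the cytosol, was 853 and 530.2 (0.69). Of 8 genes of NADPH supply, 2 were higher and 1 was lower, Me1 (malic enzyme) at 2.33 and 5.68 CPM (-1.29). The median of the removal list was -0.07 beside 0.10 over all genes of the class. The 2 genes of other NADPH oxidases and their partners with enough UMIs were not past 0.5. The mix of the class differed between the libraries: C1q cells were 29.8% of it with GA and 44.8% in the control. A C1q subcluster led by Hmox1, with Gclm among its leading genes, held 49 cells with GA and 118 in the control. The part of this mix in the ratios was not tested.

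In mesenchymal lineage cells 2 genes of these lists were past 0.5, against 12.6% of all genes of the class. Duox1, an NADPH oxidase that makes hydrogen peroxide, was 1 of 4 genes of other NADPH oxidases and their partners. Its level was 9.38 CPM with GA and 5.52 in the control (0.76). Of 12 regulators Prkcb, a kinase that acts on p47phox, was 2.55 and 4.97 CPM (-0.96). None of 21 genes of superoxide and peroxide removal and none of 7 of NADPH supply was past it.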

How the data were processed

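The authors deposited 1 matrix of UMI counts per library, made with Cell Ranger 7.0.1 per the file headers on the mm10 build, and these deposited counts are not normalized. Cells with 500 to 140000 UMIs, 200 to 9500 genes and at most 15% mitochondrial UMIs were kept, and likely doublets were removed by a simulated-doublet score at a rate of 0.8% per 1000 cells (680 barcodes with GA and 586 in the control). The 2000 most variable genes without the members and pathway genes gave 50 components, which were corrected for library by a Harmony procedure and clustered with leidenalg 0.10.2 at resolution 1 (Python 3.11.15, NumPy 2.4.6, SciPy 1.17.1, scikit-learn 1.9.0, igraph 0.11.9). A cluster was named from at least 3 detected markers; the thresholds for naming were set after seeing the clusters, and osteoblast-like and mesenchymal clusters were merged. Clusters that could not be named held 216 cells with GA and 229 in the control, and classes of under 50 cells were not compared.

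UMIs were summed per class and library, and log2 ratios of GA over control were computed with exact conditional intervals, with no test, since each condition had 1 library. A gene needed 200 UMIs over both libraries to be counted past a log2 ratio of 0.5, and 20 to enter a median. The scripts were tested on simulated data. The members, markers, pathway lists and named genes (each member, pathway genes past the ratio up to 6 per class by size, and the 5 genes most like each member) were chosen with earlier results of these data known. Alternatives covered scaling, thinning, filters, batch correction, clustering, naming, background, subset weights and the cells with the most UMIs, and leaving out a subcluster was added after seeing the data. Promoters of Ncf4, Rac2 and Rac1 were not used here.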

Additional observations from a re-analysis of the deposited data

Results flagged for a closer look

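In comparison to control, the Cybb log2 ratio took opposite signs in some classes, and these differences between classes were not tested. It was 0.65 in dendritic-like cells and 0.91 in mesenchymal lineage cells, both higher with GA, and -0.63 in plasmacytoid dendritic-like cells, lower with GA, where neutrophil-like cells were at -0.14. The dendritic-like value was -0.088 with each cell named by its highest marker score. The mesenchymal level, not read as expression, was 0 CPM in both libraries with 5% background removed, an amount above that level. The mesenchymal value rests on 164 and 181 UMIs, the dendritic-like value on 1915 and 2196 UMIs and the plasmacytoid dendritic-like value on 545 and 543 UMIs. With 1 library per condition, each direction is that of a single pair of libraries.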

How the results depend on the processing

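No paired analysis was possible because each condition had 1 library. In macrophage- and monocyte-like cells the count of members past a log2 ratio of 0.5 was 1, and it was 0 relative to the median gene, with cells thinned, without doublet removal, with at least 2000 UMIs per cell, without batch correction, with naming by marker score, with 5% background removed, with equal subset weights and without the Prtn3 subcluster; the median of the members was 0.13, and 0.0092 with equal subset weights. In neutrophil-like cells the median was 0.06, and 0.20 relative to the median gene. In mesenchymal lineage cells it was 0.91, and -0.061 with cells thinned, 1.53 at a clustering resolution of 0.5, 0.54 with naming by marker score and -0.0049 with 5% background removed, and the count past 0.5 was 3, and 0 with cells thinned and with background removed. With cells thinned or background removed, Cybb, Ncf1, Ncf4 and Rac2 had under 20 UMIs in mesenchymal lineage cells. They left the median, which then covered Cyba, Rac1 and Nox4, and could not be counted past 0.5. Those shifts are thus a change of the members counted and do not show that the ratios of these genes fell. Cybb in dendritic-like cells turned from 0.65 to -0.088 with naming by marker score. The cause of the other shifts was not tested. Of 678 member ratios recomputed, 548 stayed within their counting interval. In all, 51 had another sign, 16 of them in erythroid-like cells, 4 in neutrophil-like cells and 0 in plasmacytoid dendritic-like cells, and of these 51 the Cybb ratio in dendritic-like cells was the 1 that was past 0.5 from at least 200 UMIs before. Levels stayed within their counting interval less often than ratios. Of 189 member CPM values by subset, 64 did so with cells thinned. Of 318 member CPM values by class, 214 did so under changes of doublet removal, clustering resolution or background. Depth limits Nox4 outside mesenchymal cells and all members in erythroid-like cells, and the spread between mice is unknown.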

Other observations

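Outside the 9 classes compared, Nox4 was also seen in small clusters. In a cluster led by the endothelial genes Flt1, Emcn and Cdh5 the control library had 58 Nox4 UMIs in 16 cells (75.2 CPM) at a median of 40835 UMIs per cell, and the GA library had 0 UMIs in 30 cells at a median of 735 UMIs, where 3 UMIs would be 94.2 CPM. A cluster led by Csmd1, Limch1 and Cxcl12 had 24 Nox4 UMIs in 10 control cells (345 CPM) and 0 UMIs in 2 GA cells. A cluster led by Kcnj8, Mmp3 and Cdkn1c, which was not named, held 42.6 CPM with GA in 27 cells and 66.3 CPM in the control in 45 cells. A second one led by Mmp3 and Kcnj8 held 81.1 CPM in 22 cells and 162 CPM in 28 cells. Kcnj8 encodes a potassium channel known from mural cells, but both clusters had their highest marker score for the mesenchymal list. Those scores were 1.84 and 1.93, beside 1.24 and 1.25 for the pericyte or smooth muscle list. In a cluster of platelet-like genes (Ppbp, Clec1b, Gp9), Rac1 was 743 CPM with GA in 51 cells and 358 CPM in the control in 26 cells, and Cybb had 1 and 2 UMIs.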
